A study of Sus scrofa with 37 samples.

Results

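The comparison set skeletal muscle taken 24 h after contusion against skeletal muscle taken 20 h after contusion in Bama minipigs, with 4 libraries at each time, so 8 of the 37 libraries of the series. All 9411 genes that passed the filter on low counts were compared, of 9418 rows in the table. The series holds 9 control libraries and 4 libraries at each of 7 times after injury, and it came from 8 minipigs. The labels name no genotype, age, sex or muscle, do not say which animal gave which library, and enter mechanical damage for all libraries, controls among them. P-values therefore measure the spread between libraries, which may share animals.

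Contusion crushes muscle fibres without opening the skin. Dead fibres are cleared by phagocytes, and satellite cells, the stem cells of muscle, are activated, divide and begin to differentiate under the myogenic factors MYOD1 and MYOG. At the same time the surviving fibres break down damaged protein through the proteasome and lysosomes, change their fuel use, and endothelial cells, fibroblasts and fat-storing cells of the tissue respond to the wound. The comparison asks which genes differ over the 4 hours between the 2 sampling times.

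The 8 libraries held between 9912205 and 22877840 counts, and 24 h replicates 2 and 4, at 22174087 and 22877840, held far more than the other 6. A count of 3 was worth between 0.108 and 0.280 CPM (counts of a gene relative to the library total, after TMM scaling for library composition). Genes of fast fibres summed to between 28420 and 108690 CPM, which fits the labelled tissue, and neutrophil markers to between 12.6 and 95.5 CPM. Features of the libraries cut across the times or move with them. NDUFAF8, a complex I assembly factor, lay below 4 CPM in 20 h replicates 1 and 4 and 24 h replicate 3 and between 12.8 and 14.5 CPM in the other 5 libraries. ND6, the protein-coding gene that lies on the opposite strand of mitochondrial DNA from the others, lay between 3.36 and 4.75 CPM at 20 h and between 49.7 and 119 CPM at 24 h, so any difference between the libraries that goes with ND6, their preparation included, and the time cannot be told apart within these 8 libraries, for every call below. On the first principal component (36.9% of variance) 20 h replicate 4 and 24 h replicate 3 stood apart, and the second (30.9%) separated the times. Over the genes tested, the root mean square log2 distance between 2 libraries had a median of 0.567 within 20 h, 0.549 within 24 h and 0.690 between the times.

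**Figure D1:**
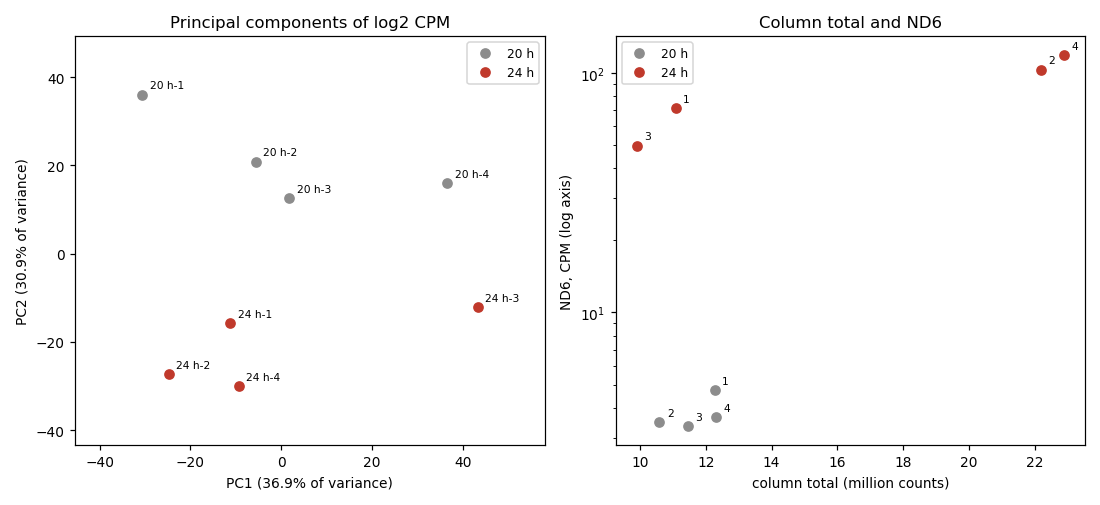
Left, the 8 libraries on the first 2 principal components of log2 CPM (percent of variance on the axes, points labelled by time and replicate). Right, column total (M counts) against ND6 in CPM on a log axis, points labelled by replicate. The second component and ND6 both separate 20 h from 24 h, and 24 h replicates 2 and 4 have the large totals.

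Of the 9411 genes, 302 (3.21%) passed an adjusted p of 0.05 in edgeR's quasi-likelihood test with Benjamini-Hochberg adjustment, fitted to all 37 libraries. Of these, 182 (1.93%) were higher and 120 (1.28%) lower at 24 h. Scaling by column totals alone, which moved the median log2 change of all genes from -0.001 to 0.15, gave 173 higher and 51 lower. The change was at least 2-fold for 91 of the higher and 68 of the lower genes. Levels at 24 h did not overlap those at 20 h for 1231 genes (13.1%), 726 higher (7.71%) and 505 lower (5.37%), and 265 of the 302 called genes were among them. The number called rested on single libraries: it was 153, 101 and 179 without 20 h replicate 1, 2 or 3, and 111 and 98 without 24 h replicate 2 or 4. Without 20 h replicate 4, 24 h replicate 1 or 24 h replicate 3 it was 282, 251 and 310. A core of 70 genes (46 higher) was called by edgeR in all 37 libraries and again without each of the 8 in turn. This core rests on edgeR alone, and limma-voom did not call every gene of it. Of these 70, 62 were also called with the recurring library sets (large total, C1QBP-high, NDUFAF8-low) as a term in the fit, and 41 when the remaining libraries were split by their ND6 level as well. That split divided only the libraries of no set, and ND6 itself was among the 41 (edgeR adjusted p = 0.00253). It therefore did not take out the ND6 difference between the times, and a call kept under it is not free of that difference. Nor does a call lost under it mark a gene as going with ND6. Genes of this core are named as such below. Counts of called list members below stand against the shares of all genes, 1.93% called higher and 1.28% called lower.

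Fat-related genes included the lowest p of the comparison. FABP4, the fatty acid carrier of adipocytes, capillary endothelium and some macrophages (chromosome 4, 55096400 to 55101209, Sscrofa11.1), stood at 36.1, 16.5, 20.1 and 20.6 CPM in 20 h replicates 1 to 4 and at 142, 151, 272 and 109 CPM in 24 h replicates 1 to 4. Every 24 h library was above every 20 h library, and the gene rose by 2.85 ± 0.39 (log2, SE), or 7.23-fold (edgeR adjusted p = 0.000176). The 20 h group had the lowest mean in the series: controls ranged from 41.9 to 190 CPM, and 16 h libraries from 40.8 to 103 CPM. CPT1A, which admits long-chain fatty acids to mitochondria, lay between 14.4 and 14.8 CPM in the 20 h libraries and at 59.6, 45.3, 61.6 and 44.7 CPM at 24 h. It rose by 1.85 ± 0.42 (edgeR adjusted p = 0.0128), and its 16 h libraries had ranged from 28.4 to 34.9 CPM. PCK1, an enzyme of gluconeogenesis and glycerol synthesis in fat cells, rose from 1.12, 0.311, 0.349 and 0.129 CPM, the last of them under the level of 3 counts, to 21.1, 9.72, 5.36 and 11.2 CPM (4.68 ± 0.80, edgeR adjusted p = 0.00121). FABP4, CPT1A and PCK1 belong to the core.

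Among adipocyte markers, 2 of 10 tested genes were called, FABP4 and ADIPOQ, and both were higher, against 1.93% of all genes in that direction. 6 of the 10 had a positive change, and FASN, PLIN4, CFD and SCD had negative ones (-0.68 to -0.06) that did not pass. The median log2 change of the list was 0.56, against -0.001 for all genes. ADIPOQ, the adipocyte hormone adiponectin, stood at 17.8, 4.04, 3.91 and 6.45 CPM at 20 h and 42.0, 38.8, 47.0 and 26.1 CPM at 24 h (2.27 ± 0.58, edgeR adjusted p = 0.0263). It was not called without 20 h replicate 2, 3 or 4 or without 24 h replicate 2 (adjusted p up to 0.102). PLIN1, the lipid droplet coat of fat cells, was at 13.6 CPM in 20 h replicate 1, between 0.769 and 2.90 CPM in the other 20 h libraries and between 11.6 and 22.0 CPM at 24 h. The groups overlapped and it did not pass (1.77 ± 0.73, edgeR adjusted p = 0.190). Summed over the 10 markers the 20 h libraries held 258 to 826 CPM and the 24 h libraries 443 to 632 CPM. In bulk tissue, more cells of a type and more RNA per cell cannot be told apart. Of 33 genes of fatty acid uptake and oxidation, CPT1A alone was called, and the median was 0.19. PLIN2, a lipid droplet coat of many cell types, lay between 72.8 and 112 CPM at 20 h and between 168 and 259 CPM at 24 h, without overlap, and did not pass (1.06 ± 0.50, edgeR adjusted p = 0.261). 2 secreted lipid proteins were chosen after their values were seen or by the size of their change. LIPG, endothelial lipase, fell from 25.6, 39.9, 30.8 and 36.1 CPM to 8.47, 2.75, 8.72 and 4.36 CPM (-2.47 ± 0.54, edgeR adjusted p = 0.0100). APOA1 was called higher (1.04 ± 0.29, edgeR adjusted p = 0.0438), but 24 h replicate 3, at 13.9 CPM, lay inside the 20 h range of 10.3 to 17.9 CPM. LIPG was not called without 24 h replicate 2 or 4 (adjusted p up to 0.0515), nor APOA1 without any single 20 h library or 24 h replicate 1, 2 or 4 (up to 0.186).

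Genes that bring glucose into muscle and drive glycolysis lay on the lower side. SLC2A4, the insulin-responsive glucose transporter GLUT4 (chromosome 12, 52628746 to 52634965), was at 576, 328, 227 and 120 CPM in 20 h replicates 1 to 4 and at 89.3, 73.8, 20.7 and 38.5 CPM at 24 h. Both groups spread widely but did not overlap, and the gene fell by 2.49 ± 0.53 (log2, SE), a 5.63-fold difference (edgeR adjusted p = 0.00862). Controls held 296 to 741 CPM. SLC2A4 belongs to the core, and with the library sets in the fit its adjusted p was 0.0582. PFKFB3, which makes the activator of phosphofructokinase, stood at 496, 519, 382 and 248 CPM at 20 h and at 104, 60.3, 109 and 70.0 CPM at 24 h (-2.26 ± 0.65, edgeR adjusted p = 0.0468). In controls it held 7.61 to 65.3 CPM. Its call was lost without 20 h replicate 1, 2 or 3 or without any single 24 h library (adjusted p up to 0.155). The list of 26 glycolysis and glycogen genes had these 2 calls, both lower (1.28% of all genes). It had 7 members at an unadjusted p under 0.05, all lower (8.11% of all genes), and a median of -0.57. Its sum was 222840 CPM in 20 h replicate 1 and 82687 to 93392 CPM in the other 20 h libraries. At 24 h the sum was 53826 to 92935 CPM, so the groups overlapped. HK2, the inducible hexokinase of muscle, was between 682 and 849 CPM at 20 h and at 691, 170, 301 and 325 CPM at 24 h, where replicate 1 lay inside the 20 h range, and did not pass (-1.05 ± 0.46, edgeR adjusted p = 0.219).

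3 called genes of insulin and energy signalling, chosen after their values were seen or by the size of their change, were also lower at 24 h. PIK3R1, the regulatory subunit of phosphoinositide 3-kinase, fell from 61.3, 98.7, 96.0 and 109 CPM to 40.4, 31.7, 46.5 and 31.4 CPM (-1.28 ± 0.26, edgeR adjusted p = 0.00507). MTOR, the growth-controlling kinase, was at 121 CPM in 20 h replicate 1, between 62.5 and 69.7 CPM in the other 20 h libraries and between 38.0 and 45.9 CPM at 24 h (-0.97 ± 0.18, edgeR adjusted p = 0.00259). PERM1, a muscle regulator of oxidative genes, went from 62.8, 35.2, 13.4 and 15.2 CPM to 9.84, 4.58, 2.79 and 4.14 CPM (-2.57 ± 0.57, edgeR adjusted p = 0.0105), and was not called without 20 h replicate 1 or 24 h replicate 4 (adjusted p up to 0.0641). LDHD, the mitochondrial D-lactate dehydrogenase, fell by 1.90 ± 0.36 on the log2 scale (edgeR adjusted p = 0.00252), from 29.4 to 82.0 CPM at 20 h to 5.43 to 19.5 CPM at 24 h. PIK3R1, MTOR and LDHD are of the core, and MTOR was not called with the ND6 split (edgeR adjusted p = 0.0890).

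**Figure D2:**
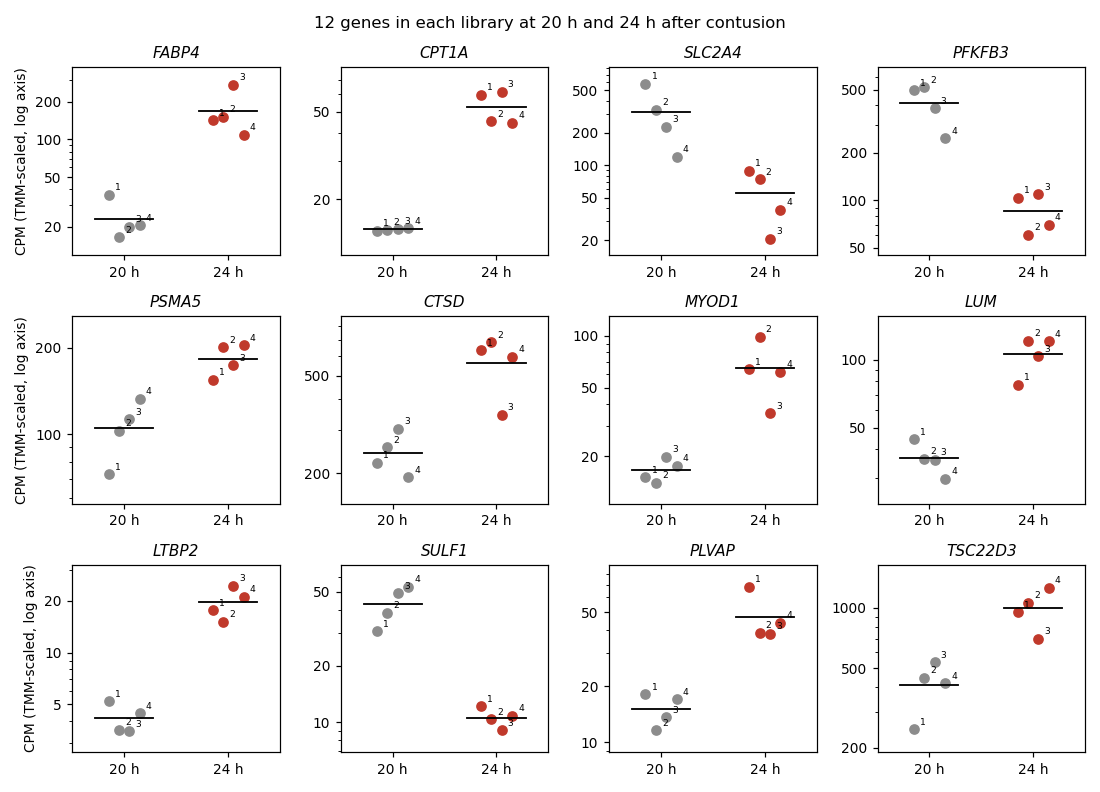
CPM on a log axis of 12 genes in each of the 4 libraries at 20 h (grey) and at 24 h (red), points numbered by replicate, with the group mean as a line. None of the 12 genes overlaps between the times; CPT1A at 20 h shows the least spread (14.4 to 14.8 CPM) and SLC2A4 a wide one (120 to 576 CPM).

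Proteasome genes were the list with the most calls. The proteasome degrades ubiquitin-tagged protein with a core of alpha (PSMA) and beta (PSMB) rings capped by ATPase (PSMC) and non-ATPase (PSMD) subunits. Of 30 members tested, 10 were called, all higher, against 1.93% of all genes. 28 of the 30 had a positive change, and the median log2 change was 0.43. 14 did not overlap, all of them higher, against 7.71% of all genes in that direction. The called genes were the core subunits PSMA1, PSMA4, PSMA5, PSMB2, PSMB3, PSMB4 and PSMB7 and the cap subunits PSMC4, PSMC6 and PSMD1, with changes between 0.57 and 0.86. PSMA5 (chromosome 4, 110695429 to 110717308) stood at 72.5, 103, 113 and 132 CPM at 20 h and 154, 200, 173 and 204 CPM at 24 h (0.80 ± 0.17, edgeR adjusted p = 0.00766), and controls at 62.9 to 104 CPM. PSMD1, the largest cap subunit, was at 161, 186, 191 and 199 CPM and then at 265, 314, 276 and 329 CPM (0.68 ± 0.15, edgeR adjusted p = 0.0108). PSMA1, another alpha ring subunit, went from 86.3, 127, 142 and 162 CPM to 201, 252, 211 and 278 CPM (0.86 ± 0.21, edgeR adjusted p = 0.0163). PSMA6, 1 of the 2 members with a negative change, had 9.88 to 18.6 CPM at 20 h and 8.36 to 12.7 CPM at 24 h (-0.46 ± 0.23, edgeR adjusted p = 0.292). Summed over the 30 genes, the 20 h libraries held 4709 to 5332 CPM and the 24 h libraries 5753 to 7372 CPM, and controls 3485 to 5223 CPM. The 2 highest sums at 24 h, 7372 and 7365 CPM, were those of replicates 2 and 4, which have the large totals.

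**Figure D3:**
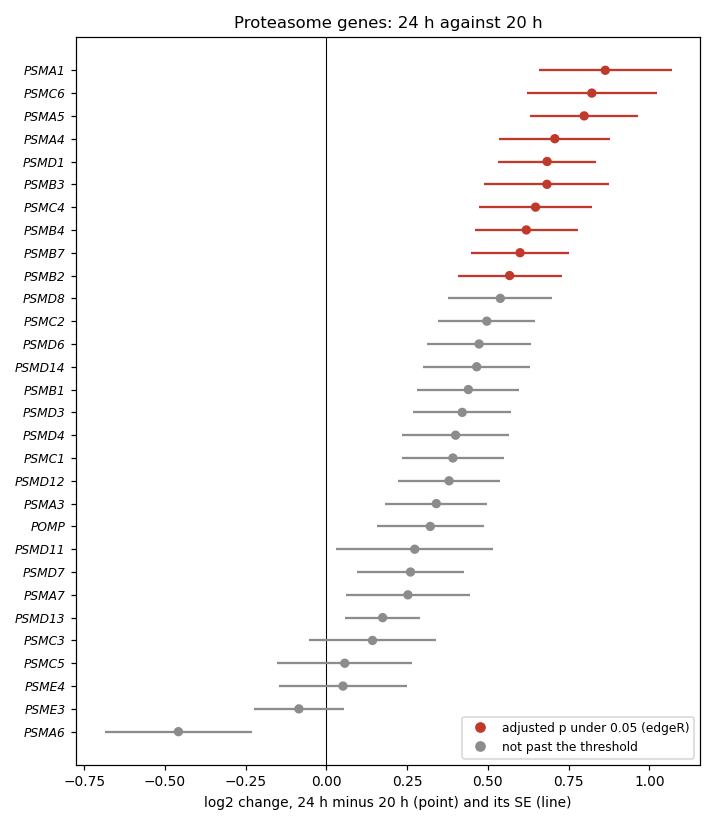
Log2 change from 20 h to 24 h (point) and its SE (line) for the 30 proteasome genes tested, in order of change, with the 10 called genes in red. 28 points lie above 0; PSMA6 and PSME3 lie below it.

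The direction of the proteasome list held in each fit tried, with medians from 0.227 to 0.564, but its calls did not. With the library sets as a term, and in the fits without 24 h replicates 2 and 4 or without the NDUFAF8-low libraries, 0 of the 30 were called, at medians of 0.344, 0.270 and 0.524. 2 were called in the fit of the 8 libraries alone, and 2, 3, 6, 2 and 1 without 20 h replicate 1, 2 or 3 or 24 h replicate 2 or 4. Without 20 h replicate 4, 24 h replicate 1 or 24 h replicate 3, 9, 8 and 12 were called. DESeq2 called 12 and limma-voom 10, all higher. PSMA5 is of the core, and its adjusted p with the library sets was 0.0725. PSMD1 was not called without 24 h replicate 4 (edgeR adjusted p = 0.0541), nor PSMA1 without 20 h replicate 1 or 2 or 24 h replicate 2 or 4 (up to 0.0803).

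Other genes of protein turnover changed singly. CTSD, the lysosomal protease cathepsin D and a core gene, stood at 221, 255, 303 and 192 CPM at 20 h and 633, 684, 346 and 598 CPM at 24 h (1.22 ± 0.26, edgeR adjusted p = 0.00862). The 24 h libraries lay above all 9 controls (193 to 303 CPM), as did those at 16 h (337 to 456 CPM), and with the ND6 split CTSD was not called (edgeR adjusted p = 0.122). CTSD and FABP4 were the 2 calls among 17 genes of lipid-handling macrophages, against 1.93% of all genes called higher, and the median of that list was 0.70. Chosen after their values were seen, UBXN4, an adaptor of endoplasmic reticulum degradation and a core gene, rose by 0.67 ± 0.14 (edgeR adjusted p = 0.00831), UBQLN1, which carries ubiquitinated protein to the proteasome, by 0.60 ± 0.15 (0.0173), and UBA3, a subunit of the NEDD8-activating enzyme, by 0.63 ± 0.16 (0.0263). UBQLN1 and UBA3 were not called without 20 h replicate 1 or 2 or 24 h replicate 2 or 4 (adjusted p up to 0.0873 and 0.107). Among 27 genes of wasting and autophagy, FOXO3, which drives their transcription in muscle, was the 1 call, against 1.28% of all genes called lower. It was at 191, 163, 130 and 85.4 CPM at 20 h and between 78.8 and 93.5 CPM at 24 h, so 20 h replicate 4 lay inside the 24 h range (-0.70 ± 0.18, edgeR adjusted p = 0.0257, up to 0.125 without 20 h replicate 1 or 2 or 24 h replicate 2 or 4). TP53INP1, a stress-induced regulator of autophagy and p53 and a core gene, fell from 132, 152, 126 and 92.7 CPM to 46.2, 34.2, 28.4 and 34.1 CPM (-1.82 ± 0.29, edgeR adjusted p = 0.00047). HERPUD1, of the unfolded protein response, was the 1 call in that list of 27, against 1.28% of all genes called lower. It went from 186 to 246 CPM to 108 to 149 CPM (-0.63 ± 0.18, edgeR adjusted p = 0.0447), and its call was lost without any single library other than 20 h replicate 4 (up to 0.158). Members of that list went both ways. At an unadjusted edgeR p under 0.05, 4 were higher and 2 lower, against 9.47% and 8.11% of all genes. DESeq2 called MTHFD2 and PSPH higher beside HERPUD1 lower. Limma-voom called SESN2 alone, lower, and not HERPUD1 (adjusted p = 0.0513).

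The myogenic regulators MYOD1 and MYOG rose. MYOD1, the factor of activated satellite cells and myoblasts (chromosome 2, 41422522 to 41424236), stood at 15.1, 14.1, 19.8 and 17.5 CPM at 20 h and at 64.0, 98.3, 35.6 and 62.0 CPM at 24 h. The groups were apart, and the gene rose by 1.97 ± 0.37 (log2, SE), or 3.91-fold (edgeR adjusted p = 0.00252). The 20 h level was within the range of controls (10.3 to 60.4 CPM). MYOG, the factor of differentiating myoblasts, went from 59.8, 57.6, 67.1 and 63.3 CPM to 115, 173, 122 and 138 CPM (1.15 ± 0.31, edgeR adjusted p = 0.0362). MUSK, the receptor kinase of the neuromuscular junction, was between 2.45 and 11.6 CPM at 20 h and between 13.8 and 38.8 CPM at 24 h, without overlap, and did not pass (1.74 ± 0.56, edgeR adjusted p = 0.0768). They were the calls among 20 satellite cell and myogenic genes (1.93% of all genes were called higher), of which 9 had a positive change, with a median of -0.10. The list summed to 5901 to 7881 CPM at 20 h and 4738 to 6879 CPM at 24 h. MYOD1 is of the core but was not called with the ND6 split (edgeR adjusted p = 0.145). MYOG was not called without any single 20 h library or without 24 h replicate 2 or 4 (up to 0.120). POPDC3, a cAMP-binding membrane protein of muscle and a core gene, rose from 59.2, 49.8, 67.1 and 65.3 CPM to 123, 154, 125 and 189 CPM (1.29 ± 0.20, edgeR adjusted p = 0.000442).

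Contractile genes lay lower, with few calls. The 25 sarcomere and Z-disc genes summed to between 38690 and 51628 CPM at 20 h and between 24206 and 32950 CPM at 24 h, without overlap, and to 37620 to 80750 CPM in controls. Their median change was -0.61, 21 of 25 were negative and 10 had an unadjusted p under 0.05, all lower, against 8.11% of all genes in that direction. 1 of the 25 was called, lower. TCAP, the titin cap, was at 2087, 1976, 1185 and 726 CPM at 20 h and 686, 735, 174 and 539 CPM at 24 h, where the groups overlapped (-1.49 ± 0.49, edgeR adjusted p = 0.0884). MYOM1, an M-band protein, was at 1282 CPM in 20 h replicate 1, 383 to 485 CPM in the other 20 h libraries and 269 to 327 CPM at 24 h (-1.13 ± 0.39, edgeR adjusted p = 0.104). Slow fibre genes had a median of -0.97 over 13 genes and fast fibre genes of -0.51 over 11, with no calls in edgeR over the 37 libraries, DESeq2 or limma-voom. At an unadjusted edgeR p under 0.05, 3 slow genes were lower, and 2 fast genes were lower and 1 higher. The shares over all genes were 8.11% lower and 9.47% higher. Fitted to the 8 libraries alone, edgeR called 1 slow gene lower and 1 fast gene higher. TNNI1, the slow troponin I, went from 2234, 1342, 750 and 606 CPM to 476, 491, 361 and 282 CPM, without overlap (-1.62 ± 0.60, edgeR adjusted p = 0.135). Library 20 h replicate 1 had the highest sum of each muscle list: its fast fibre genes came to 108690 CPM, where 20 h replicates 2 to 4 had 46532 to 51424 CPM and the 24 h libraries 28420 to 50911 CPM.

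Genes of calcium handling and excitation in the fibre gave 1 call of 18, lower, against 1.28% of all genes in that direction, with a median of -0.68. The call was KCNC4, a voltage-gated potassium channel. KCNC4 was at 49.8, 50.2, 30.7 and 15.8 CPM and then at 19.5, 13.4, 5.43 and 11.4 CPM, with overlap (-1.56 ± 0.40, edgeR adjusted p = 0.0286). Among genes chosen after their values were seen, PLCD4, a phospholipase C, fell from 93.1, 61.9, 43.4 and 32.0 CPM to 18.2, 19.0, 7.58 and 13.0 CPM (-1.99 ± 0.35, edgeR adjusted p = 0.00142), and ASB4, a ubiquitin ligase subunit, from 32.6 to 99.4 CPM to 11.9 to 27.4 CPM (-1.64 ± 0.35, edgeR adjusted p = 0.00841). Both are core genes that kept their call with the ND6 split, as did ND6 itself. JSRP1, of the triad junction, and STIM1, the sensor of calcium stores, were called lower (-1.11 ± 0.31 and -1.04 ± 0.28, edgeR adjusted p = 0.0418 and 0.0361). Also called lower were SMCO1 (-2.15 ± 0.53, edgeR adjusted p = 0.0209), AQP4, a water channel (-2.02 ± 0.58, 0.0462), GRIP2 (-2.30 ± 0.52, 0.0127) and KY, a Z-disc protein (-2.32 ± 0.64, 0.0391). KY turned on 20 h replicate 1, at 291 CPM, while 20 h replicates 2 to 4 lay between 12.9 and 51.3 CPM and the 24 h libraries between 10.1 and 31.6 CPM, and its adjusted p without that library was 0.585. KCNC4, STIM1, SMCO1 and KY were not called without 20 h replicate 1 or 2 or 24 h replicate 2, 3 or 4 (up to 0.106, 0.229, 0.0924 and 0.585). AQP4 was not called without these or 20 h replicate 3 (up to 0.173), JSRP1 without any single library other than 20 h replicate 4 (up to 0.200), and GRIP2 without 20 h replicate 2 or 24 h replicate 4 (up to 0.0525).

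**Figure D4:**
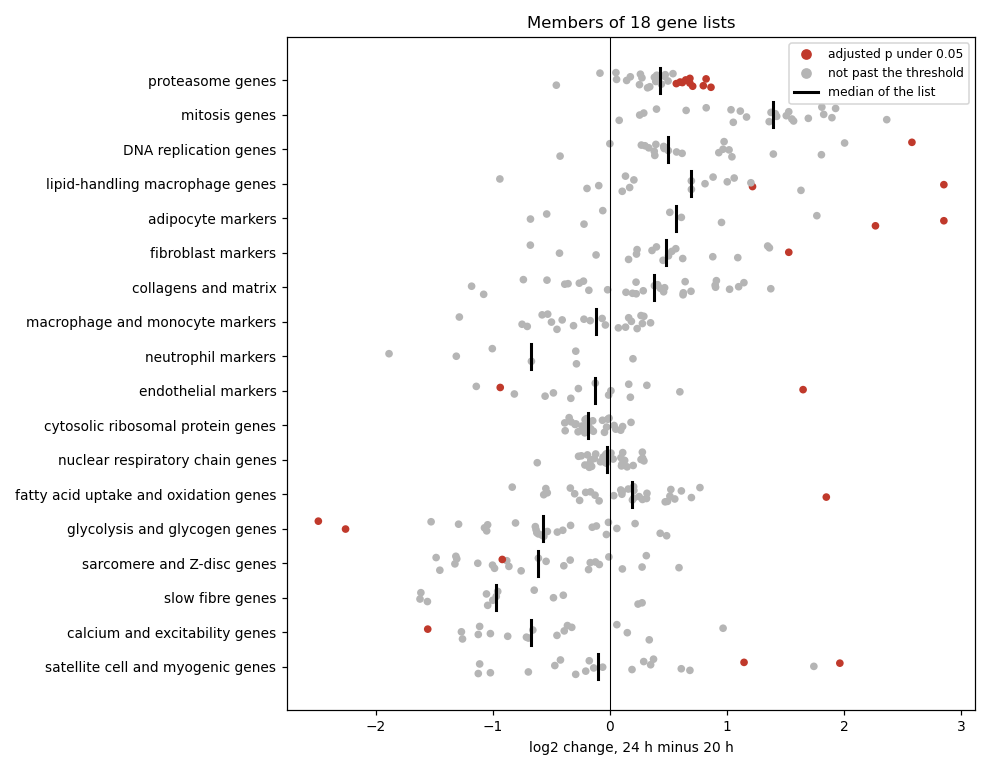
Log2 change of each tested member of 18 gene lists (grey points, called genes in red) with the median of the list as a black bar. Proteasome and mitosis genes lie almost wholly to the right of 0, and slow fibre, sarcomere, calcium and glycolysis genes mostly to the left.

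Genes of dividing cells were at low levels and higher at 24 h, with little of it past the threshold. All 24 mitosis genes had a positive change, with a median of 1.40, 16 did not overlap between the times, against 7.71% of all genes in that direction, and 11 had an unadjusted p under 0.05, against 9.47% of all genes in that direction. None passed the adjusted threshold in edgeR over the 37 libraries or in limma-voom. DESeq2 called 1, edgeR on the 8 libraries alone 2, and limma-voom with quality weights 9, all higher, in a fit that called 2856 of all genes. Their sum was 39.2, 60.4, 63.5 and 72.4 CPM in 20 h replicates 1 to 4, 107, 92.7, 161 and 86.8 CPM at 24 h, and 39.2 to 101 CPM in controls. TOP2A, the topoisomerase of chromosome separation, went from 2.42, 2.10, 3.14 and 3.87 CPM to 11.7, 7.77, 17.4 and 7.60 CPM (1.93 ± 0.67, edgeR adjusted p = 0.109). Of 23 DNA replication genes, TYMS, the thymidylate synthase, was the 1 call, from 0.373, 0.155, 0.559 and 1.42 CPM to 3.04, 3.70, 5.00 and 3.89 CPM (2.58 ± 0.71, edgeR adjusted p = 0.0387), where 20 h replicate 2 held fewer than 3 counts. TK1, thymidine kinase, was at 1.21 to 2.31 CPM and then at 6.42 to 10.5 CPM (2.01 ± 0.59, edgeR adjusted p = 0.0519). The median of the replication list was 0.50, and 10 of its genes did not overlap, all higher, against 7.71% of all genes in that direction. PCLAF, a clamp-associated factor of replication, rose from 0.559, 0.777, 2.10 and 2.58 CPM to 6.44, 8.10, 11.7 and 8.50 CPM (2.50 ± 0.70, edgeR adjusted p = 0.0438). Chosen after their values were seen, the spindle checkpoint genes MAD2L1 and KNTC1 were called higher (1.09 ± 0.31 and 2.00 ± 0.52, edgeR adjusted p = 0.0428 and 0.0286). So were the DNA glycosylases UNG, from 10.1 to 13.2 CPM to 17.9 to 23.7 CPM (0.79 ± 0.18, 0.0132), and MBD4, a core gene (0.73 ± 0.16, 0.0105), while the repair gene ERCC6, also of the core, was lower (-1.68 ± 0.35, 0.00679). H1-4, a linker histone of the core with near-identical copies and so uncertain, was lower (-2.64 ± 0.55, 0.00733). TYMS and PCLAF were not called without 20 h replicate 1, 2 or 3 or 24 h replicate 2, 3 or 4 (up to 0.127 and 0.130), MAD2L1 without any single library (up to 0.128), KNTC1 without 20 h replicate 1, 2 or 3 or 24 h replicate 3 (up to 0.117), and UNG without 20 h replicate 2 (0.0545). With the library sets in the fit the adjusted p of H1-4 was 0.0886 and that of ERCC6 0.0885.

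Matrix genes showed changes in proteoglycans and in the enzymes of heparan sulfate. LUM, the proteoglycan lumican that spaces collagen fibrils, stood at 44.4, 36.4, 35.9 and 29.7 CPM at 20 h and 77.4, 121, 103 and 120 CPM at 24 h (1.53 ± 0.36, edgeR adjusted p = 0.0156), and was the 1 call among 18 fibroblast markers, whose median was 0.48. Chosen after their values were seen, 3 other genes of its family were called higher. OGN went from 13.0, 10.3, 11.5 and 6.38 CPM to 19.6, 42.6, 24.7 and 35.4 CPM (1.58 ± 0.43, edgeR adjusted p = 0.0380). ASPN went from 1.40 to 2.80 CPM to 6.37 to 9.36 CPM (1.85 ± 0.44, 0.0157), and OMD from 3.16 to 9.57 CPM to 15.5 to 22.4 CPM (1.34 ± 0.38, 0.0447). Controls held 60.7 to 251 CPM of LUM, 42.4 to 186 CPM of OGN, 13.1 to 51.5 CPM of ASPN and 20.4 to 46.2 CPM of OMD. No 24 h library lay above the range of controls for these genes, and all ASPN values at 24 h lay below it. OGN, OMD and ASPN are neighbours on chromosome 3, between 42116521 and 42192902. 8 members of the family were tested, and DCN, BGN, FMOD and PRELP had changes of 0.50 to 1.07 that did not pass. LUM was not called without 20 h replicate 2 or 24 h replicate 2 or 4 (up to 0.0541), OGN without any single 20 h library or 24 h replicate 2 or 4 (up to 0.138), ASPN without 20 h replicate 1 or 24 h replicate 4 (up to 0.0621), and OMD without any single library other than 24 h replicate 3 (up to 0.127). No gene among 31 collagens and matrix genes was called in edgeR, 7 had an unadjusted p under 0.05, all higher, against 9.47% of all genes in that direction, and the median was 0.38. DESeq2 and limma-voom each called 1, ELN (elastin), as higher. COL1A2, a chain of type I collagen, was at 849 CPM in 20 h replicate 1, 266 to 364 CPM in the other 20 h libraries and 900 to 1047 CPM at 24 h (1.09 ± 0.40, edgeR adjusted p = 0.127). COL3A1, the chain of type III collagen, was at 2408 CPM in 20 h replicate 1, inside the 24 h range of 2046 to 2628 CPM, and at 770 to 958 CPM in the other 20 h libraries (0.88 ± 0.39, edgeR adjusted p = 0.228). Controls held 353 to 1537 CPM of COL1A2 and 1132 to 4509 CPM of COL3A1. FN1, fibronectin, was at 1395 CPM in 24 h replicate 3 and between 182 and 383 CPM in the other 7 libraries (1.10 ± 0.49, edgeR adjusted p = 0.235).

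Heparan sulfate chains bind growth factors, and their sulfate pattern is set by transferases and by surface sulfatases. HS6ST1, which adds sulfate to the 6-O position (chromosome 15, 59066448 to 59108780), was at 383, 309, 241 and 181 CPM at 20 h and 103, 69.3, 42.6 and 67.0 CPM at 24 h (-1.98 ± 0.30, edgeR adjusted p = 0.000442). SULF1, which removes sulfate from that position (chromosome 4, 65595947 to 65778889), was at 30.7, 38.4, 48.9 and 53.1 CPM at 20 h and 12.2, 10.4, 9.08 and 10.8 CPM at 24 h (-2.01 ± 0.32, edgeR adjusted p = 0.00047). The groups were far apart for both, with folds of 3.94 and 4.03. SULF1 at 24 h was close to the controls (9.86 to 21.4 CPM) and to 48 h (12.1 to 15.2 CPM), while its means at 4 to 16 h lay between 31.7 and 49.1 CPM. Both are core genes and kept their call with the ND6 split (edgeR adjusted p = 0.00253 and 0.00371), as did ND6 itself. EXTL3, which starts the chain, was lower too (-0.82 ± 0.23, edgeR adjusted p = 0.0437), from 29.0 to 53.5 CPM to 18.5 to 25.6 CPM, but not without 20 h replicate 1, 2 or 4 or 24 h replicate 2, 3 or 4 (up to 0.189). These 3 were the calls among 13 heparan sulfate genes tested, a set chosen after the values were seen.

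LTBP2, a latent TGF-beta binding protein of elastic fibres and a core gene, rose from 5.22, 3.57, 3.49 and 4.45 CPM to 17.6, 15.1, 24.5 and 21.1 CPM (2.23 ± 0.44, edgeR adjusted p = 0.00365). NOG, the BMP inhibitor noggin, was between 0.838 and 2.80 CPM at 20 h and 0.072 and 0.724 CPM at 24 h, near the level of 3 counts (-2.08 ± 0.60, edgeR adjusted p = 0.0468). They were the 2 calls among 25 TGF-beta, activin and BMP genes, against 1.93% of all genes called higher and 1.28% called lower. PMEPA1, a feedback inhibitor of that pathway and a core gene, rose from 16.8 to 20.8 CPM to 29.8 to 38.0 CPM (0.76 ± 0.17, edgeR adjusted p = 0.0100), and was not called with the ND6 split (0.112). ANXA4, a calcium-dependent membrane-binding annexin and a core gene, had one of the lowest p values, from 26.8, 30.3, 29.7 and 35.2 CPM to 64.2, 66.3, 87.4 and 73.5 CPM (1.25 ± 0.19, edgeR adjusted p = 0.000442). CDH1, the epithelial cadherin, rose from 3.36, 2.25, 2.03 and 1.03 CPM to 6.51, 17.5, 13.8 and 12.0 CPM (2.53 ± 0.59, edgeR adjusted p = 0.0148), and was the 1 call among 6 keratinocyte markers, whose sum was 37.3 to 60.2 CPM at 20 h and 54.9 to 85.0 CPM at 24 h. NPNT, nephronectin of basement membranes, was lower (-1.71 ± 0.40, edgeR adjusted p = 0.0148), with 20 h replicate 4, at 3.16 CPM, inside the 24 h range of 2.20 to 3.91 CPM. NOG was not called without 20 h replicate 1, 2 or 3 or 24 h replicate 2, 3 or 4 (up to 0.210), CDH1 without 20 h replicate 2 or 24 h replicate 2 (up to 0.0556), and NPNT without 20 h replicate 1 or 24 h replicate 4 (up to 0.120).

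Vessel genes moved in both directions. PLVAP, which forms the diaphragms of fenestrated endothelium and of caveolae (chromosome 2, 60324565 to 60344450), stood at 18.1, 11.6, 13.6 and 17.0 CPM at 20 h and 68.6, 38.8, 38.2 and 43.7 CPM at 24 h. Every 24 h library was above every 20 h library (1.65 ± 0.32, edgeR adjusted p = 0.00298). The gene is of the core and kept its call with the ND6 split (0.0259), as did ND6 itself. ROBO4, a guidance receptor that steadies endothelium, fell from 51.5, 57.5, 50.5 and 43.7 CPM to 32.1, 27.1, 25.3 and 21.7 CPM (-0.94 ± 0.27, edgeR adjusted p = 0.0468). These were the calls among 15 endothelial markers, whose median was -0.13, against 1.93% of all genes called higher and 1.28% called lower. PDGFB, the endothelial signal to pericytes, was at 71.7 CPM in 20 h replicate 1, 46.2 to 47.0 CPM in the other 20 h libraries and 24.2 to 37.3 CPM at 24 h (-0.80 ± 0.19, edgeR adjusted p = 0.0173), and was the 1 call among 18 hypoxia and angiogenesis genes. ACTA2, smooth muscle actin, was called higher, from 90.1, 79.2, 56.3 and 43.0 CPM to 162, 97.9, 157 and 128 CPM (1.02 ± 0.29, edgeR adjusted p = 0.0479), and was the 1 call among 15 pericyte and smooth muscle genes. ACTG2, the enteric smooth muscle actin, was at 0.419 to 1.24 CPM at 20 h and 14.4, 0.953, 8.43 and 6.91 CPM at 24 h, with replicate 2 inside the 20 h range (3.23 ± 0.70, edgeR adjusted p = 0.00973). It is a core gene, but limma-voom did not call it (adjusted p = 0.149). The actins are close copies, so their counts are uncertain. The lymphatic genes MMRN1 and CCL21 were called higher (3.12 ± 0.78 and 2.44 ± 0.68, edgeR adjusted p = 0.0236 and 0.0410). MMRN1 went from 0.653, 1.71, 1.26 and 0.516 CPM to 13.0, 3.30, 10.2 and 9.83 CPM, and CCL21, a chemokine of lymphatic vessels, from 6.71, 1.63, 2.10 and 1.16 CPM to 17.2, 10.7, 14.5 and 19.3 CPM. ROBO4 was not called without 20 h replicate 1, 2 or 3 or 24 h replicate 2, 3 or 4 (up to 0.162), PDGFB without 20 h replicate 1 or 24 h replicate 3 or 4 (up to 0.0966), ACTA2 without any single library other than 20 h replicate 1 (up to 0.136), MMRN1 without any single 20 h library or 24 h replicate 4 (up to 0.0753), and CCL21 without 20 h replicate 2, 3 or 4 or 24 h replicate 1, 2 or 4 (up to 0.127).

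Immune lists held few calls. None of 22 macrophage and monocyte markers, 7 neutrophil markers or 12 cytokines was called by edgeR, DESeq2 or limma-voom, with 0, 1 and 1 at an unadjusted edgeR p under 0.05 and medians of -0.12, -0.67 and -0.44. Limma-voom with quality weights called 2 macrophage markers and 3 cytokines, all lower. CD163, the haemoglobin scavenger receptor of macrophages, was at 51.8, 68.5, 97.8 and 274 CPM at 20 h and 77.4, 48.7, 107 and 59.4 CPM at 24 h (-0.75 ± 0.54, edgeR adjusted p = 0.507), and its change was 0.0047 without 20 h replicate 4. S100A8, a calcium-binding protein of neutrophils, was at 8.58 CPM in 20 h replicate 4 and between 0.396 and 2.02 CPM in the other 7 libraries (-1.89 ± 0.85, edgeR adjusted p = 0.237). Macrophage markers summed to 1346 CPM in 20 h replicate 4 and 1031 CPM in 24 h replicate 3, the libraries apart on the first component, and to 446 to 709 CPM in the other 6. CISH, which dampens cytokine receptors, fell from 41.2, 28.7, 19.1 and 37.8 CPM to 5.72, 2.75, 6.15 and 4.68 CPM (-2.73 ± 0.74, edgeR adjusted p = 0.0357), the 1 call among 16 feedback genes, and was not called without 20 h replicate 1, 2 or 4 or any single 24 h library (up to 0.123). SOCS3, of the same family, was at 65.8, 118, 97.8 and 121 CPM and then at 28.2, 26.1, 46.7 and 19.3 CPM, without overlap, and did not pass (-1.75 ± 0.74, edgeR adjusted p = 0.207). IFI44, an interferon-induced gene and the 1 call among 26 of these, fell from 10.2, 12.2, 11.1 and 14.7 CPM to 6.15, 5.02, 3.79 and 4.03 CPM (-1.34 ± 0.27, edgeR adjusted p = 0.00507). It is of the core and was not called with the ND6 split (0.106).

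Single immune genes outside the called lists, chosen by the size of their change or after their values were seen, moved as follows. IFNGR1, the interferon gamma receptor, was lower (-0.60 ± 0.16, edgeR adjusted p = 0.0337), with 60.8 to 92.3 CPM at 20 h and 44.1 to 59.8 CPM at 24 h. CD209, a lectin of macrophages and dendritic cells, rose from 3.73, 2.02, 3.42 and 5.16 CPM to 18.6, 12.5, 17.2 and 17.9 CPM (2.20 ± 0.62, edgeR adjusted p = 0.0451). TREX1, a DNA exonuclease that limits interferon, rose from 2.33 to 4.10 CPM to 5.36 to 16.2 CPM (1.83 ± 0.40, edgeR adjusted p = 0.0103). MST1R, the receptor of macrophage-stimulating protein, rose from 7.92, 12.3, 13.4 and 11.9 CPM to 45.5, 44.3, 44.9 and 64.6 CPM (2.13 ± 0.40, edgeR adjusted p = 0.00252), against 0.984 to 4.02 CPM in controls. It is a core gene that kept its call with the ND6 split, as did ND6 itself. CARHSP1, a core gene whose protein binds and stabilizes messenger RNA, fell from 91.1, 85.4, 93.4 and 152 CPM to 32.7, 26.4, 34.6 and 34.4 CPM (-1.72 ± 0.35, edgeR adjusted p = 0.00507). IFNGR1 was not called without 20 h replicate 2, 3 or 4 or 24 h replicate 2, 3 or 4 (up to 0.109), CD209 without any single library (up to 0.138), and TREX1 without 24 h replicate 2 (0.0599).

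Genes answering to glucocorticoids split. TSC22D3, the glucocorticoid-induced leucine zipper and a core gene (chromosome X, 88171325 to 88233583), stood at 247, 446, 534 and 419 CPM at 20 h and 951, 1063, 702 and 1264 CPM at 24 h. Every 24 h library was above every 20 h library and above the controls (142 to 251 CPM). The gene rose by 1.27 ± 0.20 (edgeR adjusted p = 0.00047). Its call was kept under the ND6 split (0.0254), as was that of ND6 itself. KLF9, another target of the receptor, fell from 347, 446, 418 and 356 CPM to 259, 212, 166 and 228 CPM (-0.86 ± 0.22, edgeR adjusted p = 0.0257), but not without 20 h replicate 2 or 3 or 24 h replicate 2, 3 or 4 (up to 0.0979). GLUL, glutamine synthetase, was at 1190 to 1497 CPM and then at 1910 to 2691 CPM, without overlap, and did not pass (0.77 ± 0.24, edgeR adjusted p = 0.0628). The 18 genes of this list had a median of -0.02.

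**Figure D5:**
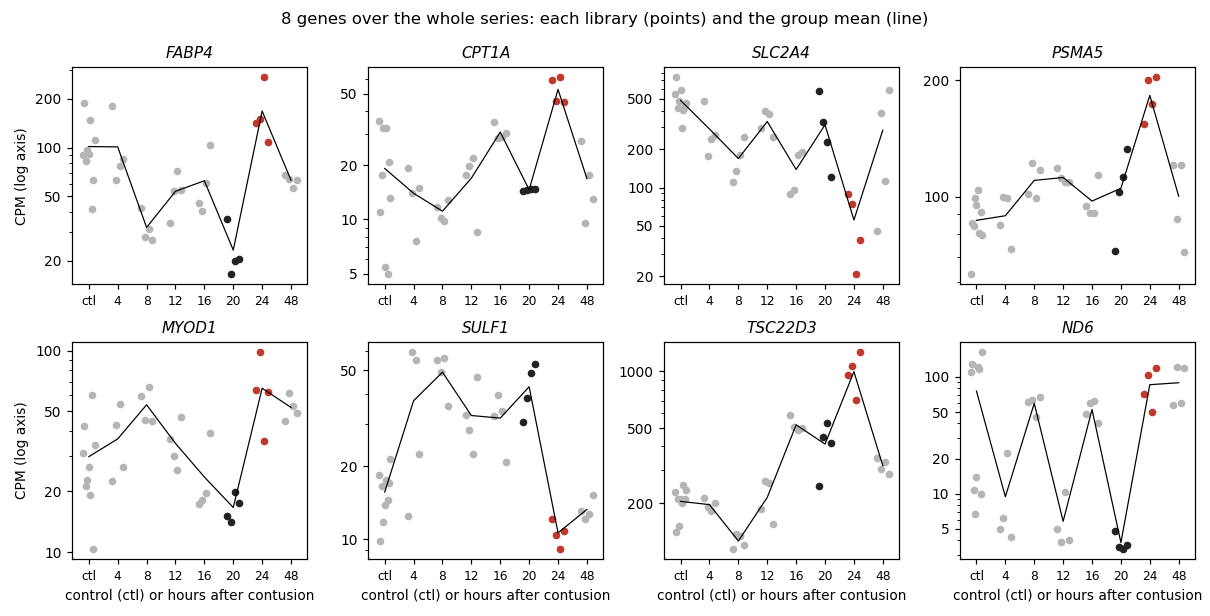
CPM on a log axis of 8 genes in all 37 libraries, with controls (ctl) and the 7 times in hours on the horizontal axis, 20 h in black, 24 h in red, other groups in grey and the group mean as a line. FABP4 and MYOD1 are lowest at 20 h, TSC22D3 and PSMA5 are highest at 24 h, SULF1 at 24 h is near the controls, and ND6 is low at 4, 12 and 20 h and high at 8, 16, 24 and 48 h.

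Further core genes, all without overlap, concern membrane traffic, metabolism and RNA or microtubules, and were chosen after their values were seen except those with the smallest p. TBC1D20, a GTPase-activating protein for RAB1, rose from 35.5, 45.0, 50.7 and 43.9 CPM to 83.6, 95.0, 82.8 and 98.2 CPM (1.04 ± 0.19, edgeR adjusted p = 0.00252), against 16.9 to 29.3 CPM in controls. VPS26C, a subunit of the endosomal retriever complex, rose by 1.24 ± 0.23 (edgeR adjusted p = 0.0023), RAB11FIP5, an effector of recycling endosomes, by 1.38 ± 0.27 (0.00357), SYTL4, an effector of secretory granules, by 1.26 ± 0.24 (0.00349), TRAPPC4, of a vesicle tethering complex, by 1.03 ± 0.23 (0.0100), NAPG, of the SNARE disassembly machinery, by 0.86 ± 0.20 (0.0151), and COG1, a Golgi tether, by 0.66 ± 0.14 (0.00854). Of these 7, TBC1D20, VPS26C and SYTL4 kept their call with the ND6 split, as did ND6 itself. No test was made of these genes as a group. ASS1, the argininosuccinate synthase of arginine supply, rose from 5.22, 3.26, 3.28 and 3.10 CPM to 9.91, 8.76, 7.29 and 6.12 CPM (1.11 ± 0.24, edgeR adjusted p = 0.0100). PRMT1, the main arginine methyltransferase, fell from 297, 269, 314 and 355 CPM to 189, 201, 199 and 191 CPM (-0.66 ± 0.15, edgeR adjusted p = 0.0143). KATNA1, which severs microtubules, rose from 17.7, 26.9, 30.1 and 30.9 CPM to 46.1, 54.0, 43.7 and 58.7 CPM (0.94 ± 0.16, edgeR adjusted p = 0.00121). MKRN2, a ubiquitin ligase, rose by 0.81 ± 0.14 and STK3, the Hippo pathway kinase, fell by 0.90 ± 0.15 on the log2 scale (edgeR adjusted p = 0.00121 for both). NUDT13, a mitochondrial NUDIX hydrolase, rose from 2.05, 1.09, 2.03 and 2.19 CPM to 8.54, 12.6, 9.93 and 11.3 CPM (2.52 ± 0.43, edgeR adjusted p = 0.00136). SPIRE2, an actin nucleator, rose from 1.40 to 2.03 CPM to 3.72 to 11.2 CPM (2.27 ± 0.45, edgeR adjusted p = 0.00421). Outside the core, UCHL1, a deubiquitinase of neurons and the 1 call among 7 Schwann and nerve markers, was higher (1.90 ± 0.50, edgeR adjusted p = 0.0289), but not without any single 20 h library or 24 h replicate 2 or 4 (up to 0.0990).

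Among mitochondrial and iron genes, ND6 separated the times, and ND4L and FTL were high only in the 24 h libraries with large totals. ND6, a core gene, was the 1 call among 12 mitochondrially encoded genes (4.49 ± 0.80, edgeR adjusted p = 0.00163), at 4.75, 3.50, 3.36 and 3.68 CPM at 20 h and 71.1, 103, 49.7 and 119 CPM at 24 h. In controls it lay between 6.66 and 163 CPM, at 4 and 12 h between 3.90 and 22.2 CPM, and at 8, 16 and 48 h between 40.3 and 121 CPM. The median of the mitochondrial list was 0.38, and none of 34 nuclear respiratory chain genes was called by edgeR, DESeq2 or limma-voom or had an unadjusted edgeR p under 0.05 (median -0.03). ND4L was at 17.7 and 23.8 CPM in 24 h replicates 2 and 4, the libraries with large totals, and between 1.03 and 2.38 CPM in the other 6 (2.56 ± 0.76, edgeR adjusted p = 0.0544, and -0.20 with the library sets). FTL, ferritin light chain, was at 21.3 and 18.8 CPM in the same 2 libraries and between 1.03 and 1.93 CPM in the other 6. It was called higher (3.09 ± 0.85, edgeR adjusted p = 0.0377), but with the library sets its change was 0.22 (adjusted p = 0.895), and it was not called without any single 20 h library or 24 h replicate 2 or 4 (up to 0.143). SLC39A14, a zinc and iron importer, fell from 134 to 166 CPM to 86.2 to 106 CPM (-0.59 ± 0.17, edgeR adjusted p = 0.0441), and FTL and SLC39A14 were the calls among 21 oxidative stress, haem and metal genes. The call of SLC39A14 was lost without any single library (up to 0.124).

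The other lists had no called gene in edgeR over the 37 libraries. These were 25 immediate early genes (median -0.20), 17 clock genes (-0.52), 30 cytosolic ribosomal protein genes (-0.18), 24 ribosome biogenesis genes (-0.28), 22 heat shock and chaperone genes (-0.20), 21 tricarboxylic acid cycle genes (-0.10), 20 sterol and lipid synthesis genes (-0.35), 18 matrix proteases and inhibitors (-0.21), 18 Wnt and hedgehog modulators (0.18), 11 complement genes (-0.13), 11 endothelial adhesion genes (-0.22) and 7 class II antigen presentation genes (-0.04). At an unadjusted edgeR p under 0.05 these lists held, in the same order, 6, 2, 1, 4, 3, 0, 3, 2, 4, 0, 1 and 2 members. The share over all genes was 17.6%. Immediate early genes (1 higher, 5 lower), Wnt and hedgehog modulators and class II genes were above that share, and the other lists below it. DESeq2 and limma-voom called no gene of these lists either, except that DESeq2 called 3 of the ribosome biogenesis list, FBL, NOP2 and RRP9, as lower. Fitted to the 8 libraries alone, edgeR called 1 immediate early gene lower. Limma-voom with quality weights, in the fit that called 2856 of all genes, called members of each list except cytosolic ribosomal protein genes. Among them were 9 ribosome biogenesis genes, all lower, and 8 immediate early genes lower and 1 higher. Lymphocyte, mast cell and erythrocyte lists had only 2, 3 and 3 tested genes, with no calls in edgeR, DESeq2 or limma-voom and none at an unadjusted p under 0.05.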

How the data were processed

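Per the labels' protocols, muscle was snap-frozen, RNA came from a Trizol extraction, and a NEBNext Ultra RNA kit was used before paired 150 bp sequencing on a HiSeq-2500. The submitters' processing notes list FastQC, MultiQC and Trimmomatic, then HISAT2 (2.2.1) and HTSeq, with Sscrofa11.1 as the genome. Neither an annotation release nor a strand setting is given in the sources used here, so overlapping genes on opposite strands cannot be told apart. The authors deposited raw counts for 9418 gene symbols in 37 columns, each matched to a sample by title. No row has a largest count under 101: the table is a selection of genes by a rule that the sources do not give, and its totals (9.86 to 22.9 M) cannot stand for the depth.

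In R 4.3.3, edgeR 4.0.16 was used with TMM factors. Its filterByExpr left 9411 genes, and a robust quasi-likelihood model with the group as factor was fitted to all 37 libraries. The contrast was 24 h minus 20 h, with p-values adjusted by Benjamini-Hochberg at 0.05. CPM are TMM-scaled, values after ± are standard errors of the fit over libraries, and the level of 3 counts covers counting error only. On data simulated for this comparison with 9411 genes, 55% of genes changed by 1 on the log2 scale and 96% of those changed by 2 were called, with 5.03% false calls. The simulated libraries were independent, with the same mean in all groups for unchanged genes and no library sets, ND6 difference or shared animals. The 5.03% therefore does not measure false calls in the real data. Pairs of libraries of a group differed by more than sampling noise (chi-square per degree of freedom at least 17.15 over genes with at least 20 counts). Positions are RefSeq spans of Sscrofa11.1, found for 8945 symbols, and 38.4% of the called genes with a span and 35.2% of the tested ones overlap another gene.

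The 48 gene lists and the libraries compared were chosen with earlier results of these data known. A rule named genes whose higher group had a mean of 5 CPM or more: among called genes without overlap, 12 by largest rise and 12 by largest fall, the 10 smallest p and up to 4 genes of a list by p. Other genes named were chosen after their values were seen. Some genes that the rule selects are not reported here. Alternatives were other scalings, filters, tools (DESeq2 1.42.0, limma 3.58.1), subsets of libraries, a replicate block and terms for library sets (column total over 20 M, C1QBP over 8 CPM, NDUFAF8 under 4 CPM, and, added after seeing the data, ND6 split at 32 CPM).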

Additional observations from a re-analysis of the deposited data

Results flagged for a closer look

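In groups of 4 libraries, a library was picked out where its gap to the nearest of the others made up more of the group's range than Dixon's 95% critical value. This held for 23 of the 228 groups examined (10.1%), and 13 of the 23 were 20 h replicate 1. The critical value picks about 1 in 20 only for independent, normally distributed values. The CPM were not logged, and the genes share libraries and were partly chosen by their values. The share of 10.1% is therefore a description and not a comparison with chance.

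In 20 h replicate 1 the share of the range was 0.834 for PLIN1 (13.6 CPM), 0.875 for MTOR (121 CPM), 0.886 for MYOM1, 0.849 for STIM1 (98.0 CPM) and 0.862 for KY (291 CPM), all highest there. It was 0.831 for COL1A2, 0.885 for COL3A1, 0.971 for PDGFB, 0.831 for CCL21, 0.859 for TREX1 and 0.911 for ASS1, also highest, and 0.99 for PSMC6 (99.9 CPM against 165 to 166 CPM) and 0.836 for PSMC4, both lowest. In 20 h replicate 4 it was 0.837 for S100A8 and 0.879 for CARHSP1, both highest, and in 20 h replicate 2 it was 0.85 for NUDT13, lowest.

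In 24 h replicate 3 the share was 0.875 for PLIN2, 0.861 for KNTC1, 0.897 for FN1, 0.893 for MBD4 and 0.934 for ERCC6, all highest, and 0.84 for HERPUD1, lowest. MST1R in 24 h replicate 4 had 0.941, highest.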

How the results depend on the processing

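Against 302 called genes, the count was 558 with DESeq2, all 302 among them, 2856 with limma-voom and quality weights, and 17 against a 1.5-fold change. It was 97 with the library sets as a term (88 shared), 54 with the ND6 split too (48 shared), 19 without 24 h replicates 2 and 4, and 109 without the NDUFAF8-low libraries. Within the NDUFAF8-low libraries (24 h replicate 3 against 20 h replicates 1 and 4), and within the libraries of no set (24 h replicate 1 against 20 h replicates 2 and 3), edgeR called 0, with 450 and 477 genes at an unadjusted p under 0.05; other tools were not run there, fewer libraries entered, and the lone 24 h library was assumed to vary like the other groups. Leaving out each library in turn gave 98 to 310. Counts within 1.5 times came from other scalings and filters, among them column totals alone (224, 184 shared), limma-voom (371, 263 shared), the 8 libraries alone (252, 160 shared), the 28 injured libraries (310, 243 shared) and the removal of the 2 libraries apart on the first component (211, 175 shared). Some of these fits used fewer libraries or a stricter null, and the cause of the shifts was not tested. Of 2685 values of the 96 called genes named, 0 turned in direction under these alternatives and 992 lost the call. Among 18 named genes not called, 2 turned. ND4L, at 2.56, was at -0.2003 with the library sets, -0.3161 with the ND6 split too, -0.1479 without 24 h replicates 2 and 4, -0.03451 within the NDUFAF8-low libraries and -0.1988 within those of no set. CD163, at -0.75, was between -1.005 and 0.004727 without each library in turn.

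Same-numbered deviations from the group means correlated at -0.246 to 0.227, with 2 pairs over 0.1, and 0 of 8 libraries correlated best with their own number. With 4 libraries per group, this cannot tell whether same-numbered libraries share an animal. With a replicate block 275 genes were called over the 28 injured libraries and 47 over the 8. The rows left out of the table, the unknown animals and 24 h totals up to 22.9 M against 20 h totals up to 12.3 M are limits, the last for genes of low level at 20 h.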
